A study of Mus musculus with 2 samples.

Results

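The 10 genes described here, Fzd1, Fzd2, Fzd3, Fzd5, Fzd6, Fzd7, Ror1, Ror2, Lrp5 and Lrp6, encode cell surface receptors and co-receptors for Wnt proteins. They were taken as a named list, chosen with earlier results of these data known. All 10 were present among the 17809 genes of the wild-type colon library and the 15972 genes of the reporter library. Wnt proteins are secreted lipid-modified signals that bind the extracellular cysteine-rich domain of a Frizzled receptor. When a Frizzled and the co-receptor Lrp5 or Lrp6 are engaged together, beta-catenin is stabilised and enters the nucleus, a route that maintains the stem cells at the base of the intestinal crypt. Ror1 and Ror2 are single-pass receptors of the tyrosine kinase family that bind Wnt5a and are known for beta-catenin-independent signalling in cell movement and polarity.

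The study asked which colon fibroblasts supply signals to the crypt, and its single-cell data are 2 droplet libraries. The wild-type library held EpCAM+ CD45- epithelial and EpCAM- CD45- non-epithelial colon cells of C57BL/6 mice, sorted and mixed in equal parts (V3 kit), so lymphocytes and other CD45+ cells were largely removed. The reporter library, made with the V2 kit, held GFP+ mesenchymal cells from the colon of Pdgfra-H2B-eGFP mice. In these mice the Pdgfra locus drives nuclear GFP, so the GFP gate was set on Pdgfra-expressing cells. Even so, 34 cells passed the epithelial and 55 the immune marker gate, 31 and 16 of them without passing a gate of another kind. Each library pooled cells of 3 female mice of 8 to 12 weeks, with 16000 cells loaded, and cells cannot be assigned to mice. There was therefore 1 library per group, no test across animals was possible, and no p-value is given. The libraries differ in kit, mice and sort, so each was compared only within itself.

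The deposited values are whole-number counts that SCTransform had corrected to a common depth, and no uncorrected counts were used here. A level below is the corrected count averaged over the cells of a group, and a share is the percentage of its cells with a value above 0, with an exact (Clopper-Pearson) 95% interval that covers counting error only. For a share of 0 the upper limit printed is instead the share that 3 cells would make, a limit on cells with a value above 0 and not on cells that express the gene. Cells of a library are not replicates. The wild-type library held 7495 cells with a median corrected total of 8972 and a median of 2804 genes, and the reporter library held 4409 cells with medians of 3150 and 1381, so shares of the libraries are not comparable. Only 1 cell barcode occurred in both. In the wild-type library 3043 cells had more than 10% mitochondrial counts. By corrected counts 101 cells were at or over the mitochondrial limit that the study states. The deposited library also held more cells than the final set the study describes. Levels were not compared between genes, because the kits count 3′ ends and capture differs from gene to gene.

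Cells were grouped by counting, in each cell, how many markers of a cell type were present, and none of the 10 receptors was used. In the wild-type library this gave 2686 epithelial cells, among them 208 crypt base cells (Lgr5, Ascl2), 183 dividing cells, 100 absorptive-lineage cells marked by Krt36 and Fut9, 575 colonocytes, 320 goblet cells, 192 Reg4 secretory cells and 78 enteroendocrine cells. It gave 2470 fibroblasts, among them 656 crypt top fibroblasts (CTFs, high in Pdgfra and Bmp genes), 908 crypt bottom fibroblasts 1 (CBFs1) and 444 crypt bottom fibroblasts 2 (CBFs2, with Pi16 and Cd81). The other groups were 878 smooth muscle cells, 508 blood endothelial cells, 81 pericytes, 72 glial cells, 38 lymphatic endothelial cells and 27 immune cells, and 700 cells that passed gates of 2 kinds were left out. The reporter library gave 417 CTFs, 2240 CBFs1 and 623 CBFs2. Each gate is a range and not a natural boundary: 145 wild-type and 227 reporter fibroblasts lay 1 marker short of the CTF gate and 181 and 155 lay exactly at it. For CBFs1 these numbers were 563 and 845 short and 376 and 955 at the gate, for CBFs2 90 and 389 short and 77 and 293 at it, for crypt base cells 303 short and 135 at it, and for colonocytes 178 and 150. The CTF gate did not exclude CBFs1 markers: their median sum was 30.0 in wild-type CTFs and 41.0 in CBFs1, whereas the median sum of CTF markers was 31.0 and 3.0.

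The 10 genes lie on 9 chromosomes and share no locus, as placed by the GENCODE M21 annotation of GRCm38. The short Frizzled genes are Fzd1 (chr5:4753839-4758035, minus strand), Fzd2 (chr11:102604396-102608058, plus strand), Fzd5 (chr1:64730558-64737751, minus strand) and Fzd7 (chr1:59482424-59486955, plus strand). Fzd3 (chr14:65192449-65262463, minus strand) and Fzd6 (chr15:39006034-39038188, plus strand) are spread over longer loci. The co-receptor genes are Ror1 (chr4:100095791-100444765, plus strand), Ror2 (chr13:53109312-53286124, minus strand), Lrp5 (chr19:3584828-3686564, minus strand) and Lrp6 (chr6:134446476-134566965, minus strand). Fzd3, Fzd5, Fzd6 and Ror1 overlap predicted genes, and reads of a same-strand neighbour (Gm27263 in Fzd3, Gm12701 in Ror1) cannot be told apart where exons coincide.

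RefSeq promoter windows on GRCm38.p6 were at hand for 5 of the 10 genes. Those of Fzd1 and Ror2, which differed in opposite directions between crypt top and crypt bottom fibroblasts, and of Fzd5 and Fzd7, which differed in opposite directions between colonocytes and the lower crypt, are printed here to show which letters they hold. Each is the 250 bases before the start of transcription that RefSeq gives, 5′ to 3′ on the gene's strand. The windows of Fzd1 and Fzd7 lie upstream of the GENCODE loci given above and do not adjoin them, because the annotations place the start differently. Capitals mark 3 motifs on either strand, and neighbouring matches may share a letter. The GC box was searched as GGGCGG. The core sequence that TCF and LEF factors bind was searched as CTTTGA. The TATA box was searched as TATAAA.
Fzd1 (chr5:4758217-4758466, minus strand): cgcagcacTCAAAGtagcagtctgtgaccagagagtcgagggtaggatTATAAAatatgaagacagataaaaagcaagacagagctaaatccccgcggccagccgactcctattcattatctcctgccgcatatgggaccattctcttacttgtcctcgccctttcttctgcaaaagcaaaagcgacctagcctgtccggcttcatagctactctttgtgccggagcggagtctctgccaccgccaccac
Ror2 (chr13:53286125-53286374, minus strand): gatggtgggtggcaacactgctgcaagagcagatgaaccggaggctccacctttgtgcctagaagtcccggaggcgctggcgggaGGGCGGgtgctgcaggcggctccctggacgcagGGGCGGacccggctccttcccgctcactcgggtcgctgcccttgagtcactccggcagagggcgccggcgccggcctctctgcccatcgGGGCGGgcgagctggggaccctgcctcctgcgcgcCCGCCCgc
Fzd5 (chr1:64737751-64738000, minus strand): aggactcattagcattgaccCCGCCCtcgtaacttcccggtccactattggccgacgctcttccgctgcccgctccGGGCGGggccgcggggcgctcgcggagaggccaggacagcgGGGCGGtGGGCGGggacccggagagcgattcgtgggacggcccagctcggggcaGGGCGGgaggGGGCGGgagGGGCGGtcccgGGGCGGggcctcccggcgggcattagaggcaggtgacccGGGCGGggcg
Fzd7 (chr1:59481897-59482146, plus strand): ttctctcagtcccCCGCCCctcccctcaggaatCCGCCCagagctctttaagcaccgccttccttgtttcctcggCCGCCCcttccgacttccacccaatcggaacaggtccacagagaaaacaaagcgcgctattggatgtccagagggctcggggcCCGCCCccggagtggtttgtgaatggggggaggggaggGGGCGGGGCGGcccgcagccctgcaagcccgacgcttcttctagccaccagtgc

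The Fzd5 window held 9 GC boxes at 76.4% G and C, that of Fzd7 held 6 at 65.2% and that of Ror2 held 4 at 73.2%. The Fzd1 window held no GC box, 1 TCF/LEF core and 1 TATA box at 51.2% G and C. The fifth window, of Ror1 (chr4:100095541-100095790, plus strand), held 1 GC box and 1 TCF/LEF core at 62.4%. Among all 32851 promoter windows of the same length, 32.7% held a GC box, 13.8% a TCF/LEF core and 12.4% a TATA box, and the median share of G and C was 52.4%. A match is a description of the letters only.

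Across the wild-type colon the 10 receptors were not shared out alike. Fzd1, Fzd2, Ror1 and Lrp6 had their highest level in a fibroblast group, Fzd6 and Lrp5 in endothelium, and Fzd3, Fzd5, Fzd7 and Ror2 in an epithelial group. For 9 of the 10 the interval of the leading group overlapped that of the next group in the order, the exception being Fzd5.

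**Figure D1:**
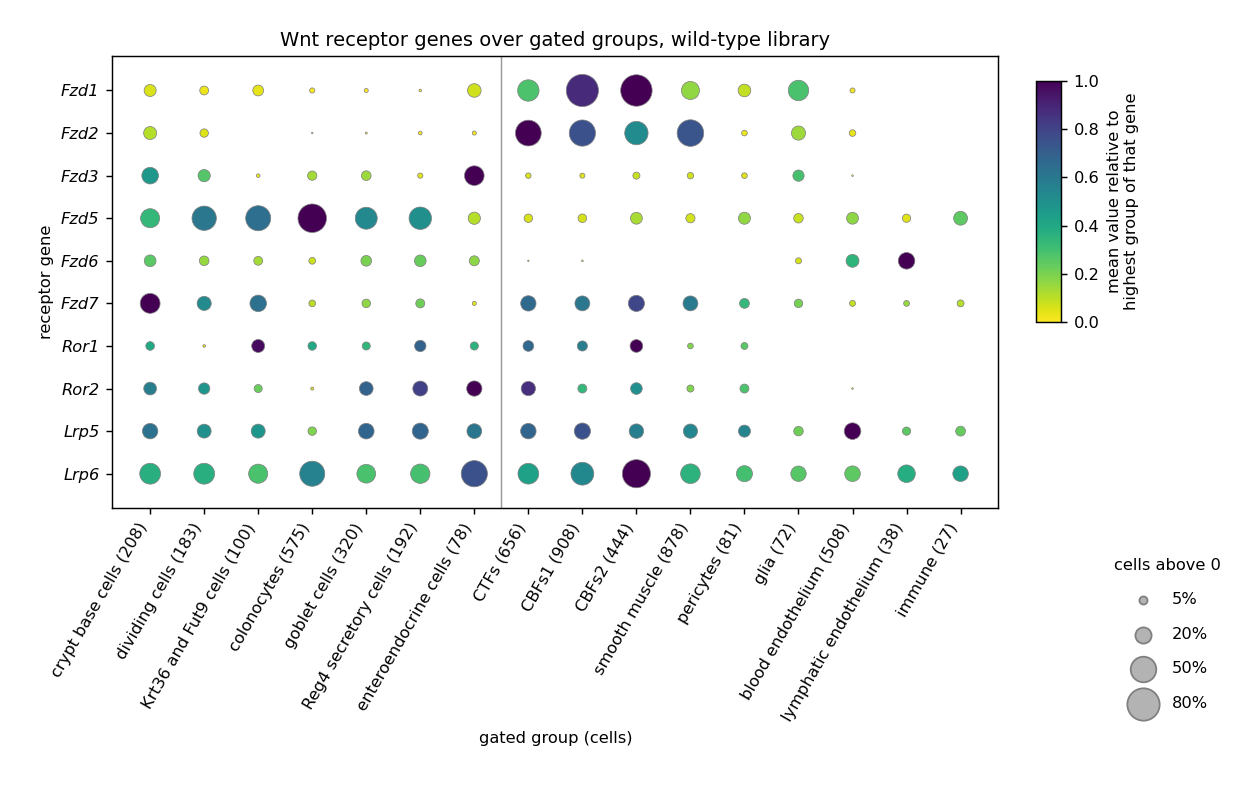
Level of the 10 receptors in the 16 gated groups of the wild-type library (number of cells in brackets). Colour is the mean corrected count relative to the highest group of that gene, from 0 to 1, dot size is the percentage of cells above 0, and the vertical line parts epithelial from other groups. Fzd1 and Fzd2 are darkest among the fibroblast groups, Fzd5 in colonocytes (62.4% of cells) and Fzd6 in lymphatic endothelium (21.1%).

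Fzd1 had a level of 2.18 in CBFs2 and 1.92 in CBFs1, where 75.9% (71.6% to 79.8%) and 79.4% (76.6% to 82.0%) of cells were above 0. CTFs had a level of 0.614 with 35.1% of cells above 0 (31.4% to 38.8%), and smooth muscle had 0.360 with 24.9%. The order thus ran from both crypt bottom types, which overlapped, to CTFs and glia (0.625, 31.9%), which overlapped each other, and then to smooth muscle. Pericytes (0.198), enteroendocrine cells (0.154) and crypt base cells (0.120, 11.1% of cells) were lower, blood endothelium had 0.0256, and none of 38 lymphatic endothelial and 27 immune cells had a value above 0, which allows shares of up to 7.89% and 11.1%. Among reporter cells the level was 0.640 in CBFs1, 0.316 in CBFs2 and 0.177 in CTFs, and the shares of 45.8%, 22.3% and 14.6% had intervals that did not overlap.

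Fzd2, the other Frizzled of the stroma, was highest in CTFs at 1.23, followed by CBFs1 at 0.927, smooth muscle at 0.909 and CBFs2 at 0.640. The shares were 50.9%, 52.6%, 54.1% and 41.9%. In these values the CTF lead over CBFs1 and smooth muscle lay in the level and not in the number of cells. The lead over CBFs2 lay in both, as the share intervals (47.0% to 54.8% in CTFs and 37.3% to 46.6% in CBFs2) did not overlap. Once cells were thinned to a common lower total, the shares were 22.9%, 16.9%, 16.9% and 13.5% in the same order. CTFs then had the highest share of these groups, with no interval calculated. Fzd2 was 0.0370 in pericytes and 0.0472 in blood endothelium, so among contractile cells it was at the fibroblast level in smooth muscle only. Reporter CTFs had 0.30 (22.5%, 18.6% to 26.9%), against 0.134 in CBFs1 (12.2%, 10.9% to 13.6%) and 0.0803 in CBFs2 (7.54%, 5.60% to 9.91%), and here the CTF share stood apart as well.

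RNA freed from other cells can give values above 0 in droplets, so the levels of Fzd1 and Fzd2 outside fibroblasts were set against 9 fibroblast markers such as Col1a1 and Dcn. In epithelium those markers summed to 0.484% of their fibroblast level, while Fzd1 stood at 3.19% and Fzd2 at 3.09%. In crypt base cells the markers stood at 0.178%, Fzd1 at 8.04% and Fzd2 at 14.8%, and in colonocytes at 0.376%, 1.51% and 0.185%. Fzd2 of colonocytes therefore lay at or below the marker level, and both genes lay above it in crypt base cells. Epithelial cells with several of these markers had been left out as cells of 2 kinds, so the gate itself held the marker level down. The same holds for epithelial markers in fibroblasts. Whether values above the marker level came from freed RNA or mixed droplets was not tested. In smooth muscle the markers stood at 32.2%, Fzd1 at 24.1% and Fzd2 at 96.8%. In glia the markers stood at 14.2% and Fzd1 at 41.8%, whereas in blood endothelium the markers stood at 2.00%. How much of the marker values in smooth muscle and glia was freed RNA was not tested, so no background level is read from them.

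Fzd3, known for axon guidance and planar polarity, was highest in enteroendocrine cells at 0.474, where 29.5% (19.7% to 40.9%) of 78 cells were above 0, and in crypt base cells at 0.221 (21.2%, 15.8% to 27.3%). Glia had 0.139, dividing cells 0.126 and colonocytes 0.0661, while CTFs, CBFs1 and CBFs2 had 0.0274, 0.0231 and 0.0405. Endocrine cells and crypt base cells had overlapping intervals. Only 32 of 4293 reporter fibroblasts had a value above 0.

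Fzd5, known for its part in Paneth cell maturation in the small intestine, was highest in colonocytes at 1.04, where 62.4% (58.3% to 66.4%) of cells were above 0. The groups marked by Krt36 and Fut9, dividing, goblet and Reg4 secretory cells followed at 0.670, 0.628, 0.550 and 0.521 with overlapping intervals. Crypt base cells had 0.346 (27.9%, 21.9% to 34.5%) and enteroendocrine cells 0.115 (11.5%, 5.41% to 20.8%), so Fzd5 was lowest in the epithelial group in which Fzd3 was highest. Outside the epithelium blood endothelium had 0.175, pericytes 0.173 and fibroblasts 0.0765, the last being 11.8% of the epithelial level while 8 epithelial markers such as Epcam stood at 2.25% in fibroblasts. Within the epithelium Fzd5 moved with those markers: relative to all epithelium they were at 62.5% in crypt base cells and 160% in colonocytes, and Fzd5 at 53.5% and 160%. Their part in the Fzd5 difference was not tested. In enteroendocrine cells the markers stood at 70.8% and Fzd5 at 17.8%.

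Fzd6, a planar polarity receptor, was highest in lymphatic endothelium at 0.447, where 8 of 38 cells were above 0 (21.1%, 9.55% to 37.3%), and in blood endothelium at 0.157 (12.8%, 10.0% to 16.0%). Crypt base cells had 0.115, Reg4 secretory cells 0.104, goblet cells 0.0906 and colonocytes 0.0348. Fibroblasts were almost without it: 3 of 2470 wild-type (0.121%, 0.0251% to 0.355%) and 3 of 4293 reporter fibroblasts had a value above 0. None of 878 smooth muscle cells had one, which allows a share of up to 0.342%. At 1.66% of the epithelial level, against 2.25% for the epithelial markers, the fibroblast values of Fzd6 were no higher than those of the markers.

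Fzd7, which mouse intestinal stem cells are known to use, was highest in crypt base cells at 0.332, where 30.3% (24.1% to 37.0%) were above 0. CBFs2 followed at 0.261, CTFs at 0.220, the cells marked by Krt36 and Fut9 at 0.210, CBFs1 at 0.200 and smooth muscle at 0.196, with overlapping neighbours. Colonocytes had 0.0348 (3.48%, 2.14% to 5.32%), goblet cells 0.0562, Reg4 secretory cells 0.0729 and enteroendocrine cells 0.0128. Fzd7 was thus seen both in the lower crypt and in every fibroblast type, and hardly in colonocytes.

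Ror1 was sparse, with levels of 0.144 in CBFs2, 0.140 in the cells marked by Krt36 and Fut9, 0.0990 in Reg4 secretory cells, 0.0960 in CTFs and 0.0837 in CBFs1. Colonocytes had 0.0574 and dividing cells 0.00546, from 1 cell of 183. None of 508 blood endothelial cells had a value above 0, which allows a share of up to 0.591%, and glia, lymphatic endothelial and immune cells were also at 0.

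Ror2 reached 0.218 in enteroendocrine cells (17.9%, 10.2% to 28.3%), 0.189 in CTFs (15.7%, 13.0% to 18.7%), 0.177 in Reg4 secretory cells (17.2%, 12.1% to 23.3%), 0.150 in goblet cells and 0.125 in crypt base cells. CBFs2 had 0.110 and CBFs1 0.0727 (6.17%, 4.69% to 7.93%), whereas colonocytes had 0.00696, from 4 cells of 575 (0.696%, 0.190% to 1.77%), and blood endothelium 0.00197. In the epithelium Ror2 was therefore seen in secretory and lower crypt groups and hardly in colonocytes. Reporter CTFs had 0.0815 (7.91%, 5.51% to 10.9%), against 0.0375 (3.53%, 2.80% to 4.38%) in CBFs1 and 0.0369 in CBFs2.

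The co-receptors Lrp5 and Lrp6 were spread more widely. Lrp5, known from bone mass and from retinal vessel growth, was highest in blood endothelium at 0.315 (21.1%, 17.6% to 24.9%) and lay between 0.150 and 0.237 in all other epithelial, fibroblast, smooth muscle and pericyte groups except colonocytes, which had 0.0609 (5.57%, 3.84% to 7.77%). Glia had 0.0694. Lrp6 was highest in CBFs2 at 1.11 (60.6%, 55.9% to 65.2%), followed by enteroendocrine cells at 0.833 (52.6%), colonocytes at 0.619 (48.2%) and CBFs1 at 0.593 (40.0%). CTFs had 0.474, crypt base cells 0.409 and blood endothelium 0.276, so no gated group was without Lrp6. Colonocytes, which had the least Lrp5 of the epithelial groups, were second among them in Lrp6. Reporter Lrp6 was again highest in CBFs2, at 0.263 (22.0%, 18.8% to 25.5%), against 0.166 in CBFs1 (14.9%, 13.5% to 16.5%) and 0.151 in CTFs (14.6%, 11.4% to 18.4%).

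Set against each other, epithelium and fibroblasts differed past 2-fold in 5 of the 6 Frizzleds, all but Fzd7, and in none of the Ror and Lrp genes. A median of 3151 genes was seen per epithelial cell and 2622.5 per fibroblast. Differences are log2 ratios of the group means, a gene needed a summed corrected count of at least 20 over both groups to be compared, and a ratio past 2-fold in either direction was called. Fzd1 was 31.4-fold lower in epithelium (0.0477 against 1.49, log2 ratio -4.97) and Fzd2 was 32.3-fold lower (0.0290 against 0.939, -5.02). Fzd5 was 8.46-fold higher in epithelium (0.647 against 0.0765, 3.08) and Fzd3 was 3.54-fold higher (0.0961 against 0.0271, 1.82). Fzd6 was 60.4-fold higher, a ratio that rests on 3 summed counts in fibroblasts (exact interval 20.4 to 295) and came to a log2 ratio of 2.89 with a pseudocount of 0.01. The other 5, Fzd7, Ror1, Ror2, Lrp5 and Lrp6, lay between -0.83 and -0.48, within 2-fold.

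In that comparison 3 of the 10 receptors were higher in epithelium, where 36.7% of all 15260 genes compared were, and 2 were higher in fibroblasts, where 20.6% were. The number of receptors called was therefore close to that of genes in general, and their median log2 ratio was -0.51 against 0.46 for all genes. Leaving out cells above 10% mitochondrial counts gave a ratio of 0.11 in place of -0.53 for Ror2.

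**Figure D2:**
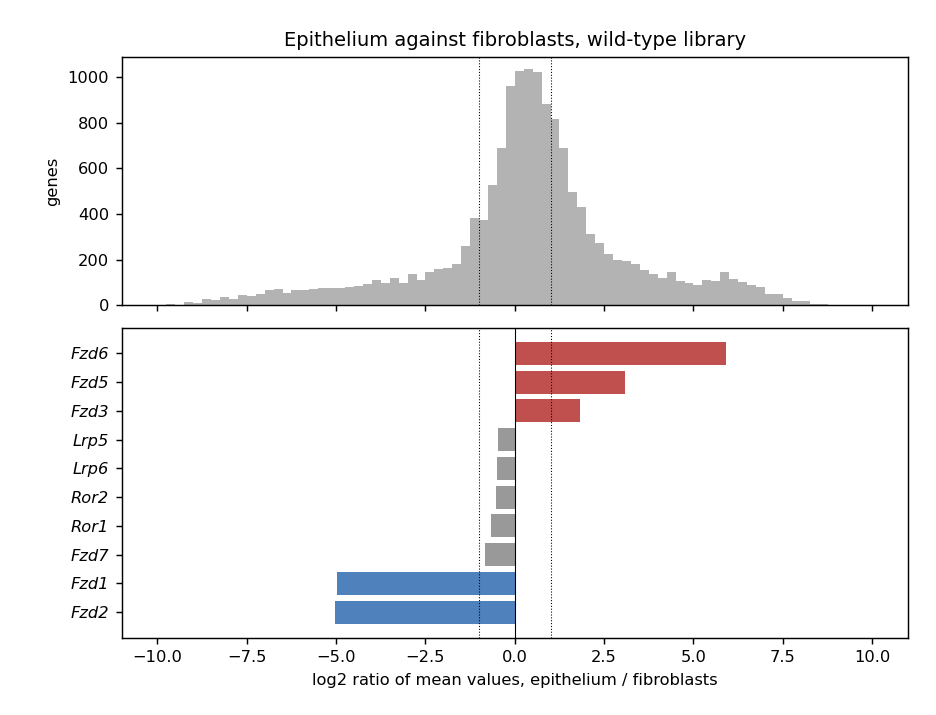
Log2 ratios of mean values, epithelium over fibroblasts, in the wild-type library, for all 15260 genes compared (histogram, number of genes) and for each receptor (bars), with dotted lines at 2-fold. Fzd6, Fzd5 and Fzd3 reach 5.92, 3.08 and 1.82, Fzd1 and Fzd2 reach -4.97 and -5.02, and the other 5 bars stay within 2-fold.

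Among fibroblasts, Fzd1 and Ror2 differed past 2-fold between crypt top and pooled crypt bottom cells in both libraries. Fzd1 was 3.26-fold lower in CTFs than in CBFs1 and CBFs2 together among wild-type cells (0.614 against 2.00, log2 ratio -1.71) and 3.21-fold lower in the reporter library (0.177 against 0.569, -1.68). Ror2 was 2.22-fold higher in CTFs of the wild-type library (0.189 against 0.0851, 1.15) and 2.18-fold higher in the reporter library (0.0815 against 0.0374, 1.13). Against CBFs2 alone, the wild-type Ror2 shares overlapped (15.7%, 13.0% to 18.7% in CTFs and 10.4%, 7.69% to 13.6% in CBFs2). The reporter shares did not (7.91%, 5.51% to 10.9% in CTFs and 3.21%, 1.97% to 4.91% in CBFs2). Fzd2 was 1.47-fold higher in wild-type CTFs (0.56), within 2-fold, and 2.45-fold higher in reporter CTFs (1.29). The Ror2 ratio of the wild-type library fell short of 2-fold with looser gates (0.93), with clusters in place of gates (1.00 after rounding) and in thinned cells (0.87), and that of the reporter library did with a pseudocount (0.95).

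The other members were within 2-fold along the crypt axis of the wild-type library: Lrp6 had -0.68, Fzd5 -0.55, Ror1 -0.11, Fzd3 -0.07, Lrp5 -0.04 and Fzd7 -0.01. In the reporter library Ror1 had -0.99, just inside 2-fold, and Fzd3 had -0.81 from 2 summed counts in CTFs (1.75-fold lower, exact interval 0.434 to 15.3). Fzd7 had -0.49, Lrp6 -0.31, Fzd5 -0.17 and Lrp5 -0.15 there, and Fzd6 was too low to be compared in either library. With stricter gates Fzd7 (-1.89) and Ror1 (-1.23) passed 2-fold towards reporter CBFs and Fzd5 (1.38) towards reporter CTFs. Reporter CTFs were then 65 cells in place of 417, so the ratios of these sparse genes rest on few counts and are not read as differences.

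Of the 9 receptors compared, 1 was higher in wild-type CTFs, where 7.59% of all 12609 genes were, and 1 in CBFs, where 10.4% were. Of reporter values 2 were higher in CTFs, where 10.3% of 12110 genes were, and 1 in CBFs, where 8.62% were. Their median log2 ratios were -0.07 among wild-type cells (all genes -0.01) and -0.31 among reporter cells (all genes 0.25).

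**Figure D3:**
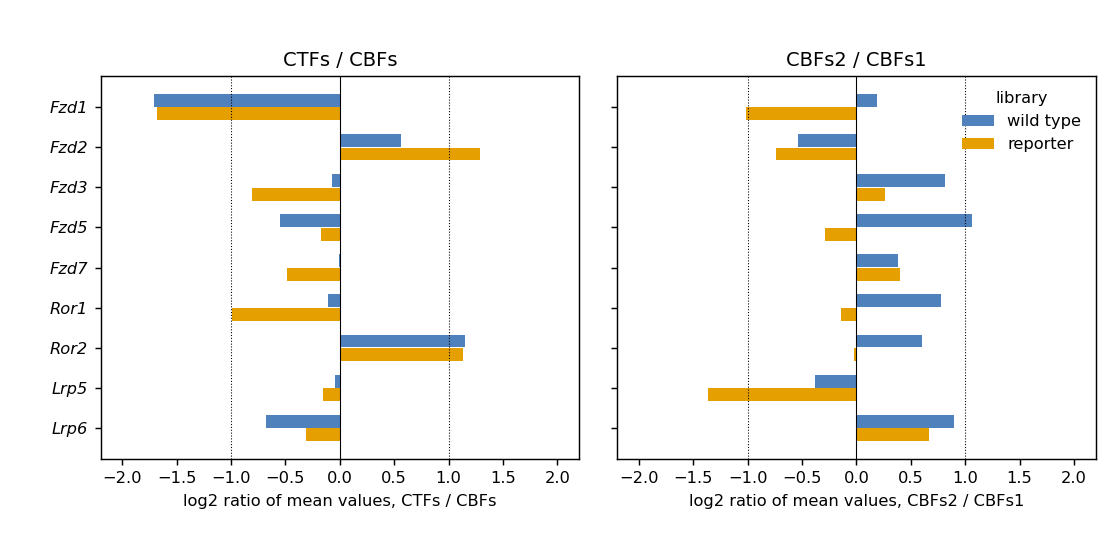
Log2 ratios of mean values between CTFs and CBFs (left) and between CBFs2 and CBFs1 (right), with 1 bar for each library and dotted lines at 2-fold. Fzd1 lies at -1.71 and -1.68 and Ror2 at 1.15 and 1.13 between CTFs and CBFs, whereas between CBFs2 and CBFs1 Fzd1 lies at 0.19 and -1.02.

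The share of Fzd1 varied with the number of CTF markers that a fibroblast carried. In the wild-type library 68.2%, 76.1% and 77.6% of fibroblasts with 0, 1 and 2 of the 10 CTF markers were above 0 for Fzd1, against 50.3% with 3, 42.5% with 4, 33.2% with 5 and 32.3% with 6 or more. In the reporter library the shares were 37.3%, 41.0% and 42.2% with 0, 1 and 2 markers, 31.7% with 3, and 17.4%, 14.9% and 11.1% with 4, 5 and 6 or more. Fzd1 was thus highest with 1 or 2 markers and lower from 3 on, with cells 1 marker short of the gate in between. Ror2 went from 8.28% at 0 markers to 19.7% at 6 or more in the wild-type library. Reporter Ror2 went from 2.47% at 0 markers to 14.0% at 5, but stood at 5.56% in the 144 cells with 6 or more. The level of Fzd2 went from 0.822 to 1.41 and from 0.102 to 0.382 over the same range.

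**Figure D4:**
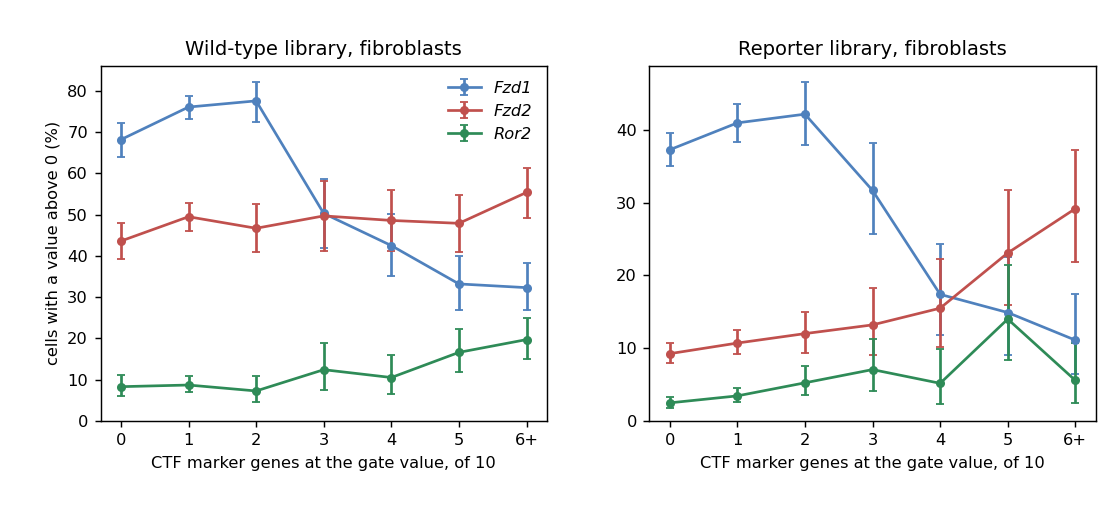
Share of fibroblasts above 0 for Fzd1, Fzd2 and Ror2, in percent with exact 95% intervals, against the number of CTF markers present in the cell, in each library (the vertical axes differ). Fzd1 goes from 68.2% at 0 markers to 32.3% at 6 or more in the wild-type library and from 37.3% to 11.1% in the reporter library, while reporter Fzd2 goes from 9.24% to 29.2%.

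Between the 2 crypt bottom types different members were called in each library. In the wild-type library CBFs2 exceeded CBFs1 in Fzd5 (2.08-fold, 0.137 against 0.0661), Lrp6 (0.90), Fzd3 (0.81), Ror1 (0.78) and Ror2 (0.60), with Fzd7 at 0.38, Fzd1 at 0.19, Lrp5 at -0.38 and Fzd2 at -0.54. The Fzd5 ratio came to 0.11 in place of 1.06 once cells were thinned to 1 total, and fell short of 2-fold with stricter gates (0.92), a pseudocount (0.95) or clusters (0.76). In thinned cells Ror1 and Lrp6 (1.15) passed 2-fold towards CBFs2 instead. In the reporter library Lrp5 was 2.58-fold lower in CBFs2 (0.0273 against 0.0705, -1.37) and Fzd1 was 2.02-fold lower (0.316 against 0.640, -1.02), the latter falling short of 2-fold, between -0.99 and -0.94, with clusters, thinned cells, pooling or a pseudocount. Lrp6 was higher in CBFs2 of both libraries (0.90 and 0.67), as was Fzd7 (0.38 and 0.40), and Fzd2 was lower in both (-0.54 and -0.74), each within 2-fold.

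Between the crypt bottom types 1 of 9 receptors was called higher in wild-type CBFs2, where 8.33% of 11896 genes were, and 0 in CBFs1, where 6.40% were. Of reporter receptors 0 were higher in CBFs2, where 4.64% of 11740 genes were, and 2 in CBFs1, where 13.0% were. Genes seen per cell had medians of 1434 in reporter CBFs1 and 1268 in CBFs2.

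Along the epithelial differentiation axis 7 of the 10 receptors were higher in the lower crypt, where a median of 3433 genes was seen per cell, against 2881 per colonocyte. The 391 crypt base and dividing cells exceeded the 575 colonocytes 7.43-fold in Fzd7 (0.258 against 0.0348, log2 ratio 2.89), 2.94-fold in Lrp5 (1.56) and 2.67-fold in Fzd3 (1.42). Ror2 was 16.5-fold higher (0.115 against 0.00696, 4.05), a ratio that rests on a sum of 4 in colonocytes. Fzd6 was 2.72-fold higher (1.44), and fell short of 2-fold with clusters (0.95). Fzd2 was 60.3-fold higher from a sum of 1 in colonocytes (exact interval 10.2 to 2439), and its log2 ratio went from 5.91 to 1.30 without cells above 10% mitochondrial counts. Fzd1 was 4.19-fold higher (2.07), but came to 0.18 with stricter gates. Those gates held 28 crypt base and 182 dividing cells, in place of 208 and 183, so the lower crypt was then mostly dividing cells. The part of this change in the ratios was not tested.

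Fzd5 was the receptor that went the other way, 2.17-fold lower in the lower crypt (0.478 against 1.04, -1.12). It fell short of 2-fold with stricter gates (-0.80), where the lower crypt was mostly dividing cells, and with clusters (-0.97). Ror1 (-0.79) and Lrp6 (-0.60) were within 2-fold. The 7 of 10 receptors higher in the lower crypt stand beside 34.5% of all 11663 genes, and 1 was higher in colonocytes, where 13.3% were. Their median log2 ratio was 1.5 against 0.50 for all genes. In cells thinned to a corrected total of 2000, 4 receptors reached the minimum sum, and 2 of them, Fzd7 (2.80) and Lrp5 (1.14), were higher in the lower crypt. No share of all genes stands beside the count of thinned cells.

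**Figure D5:**
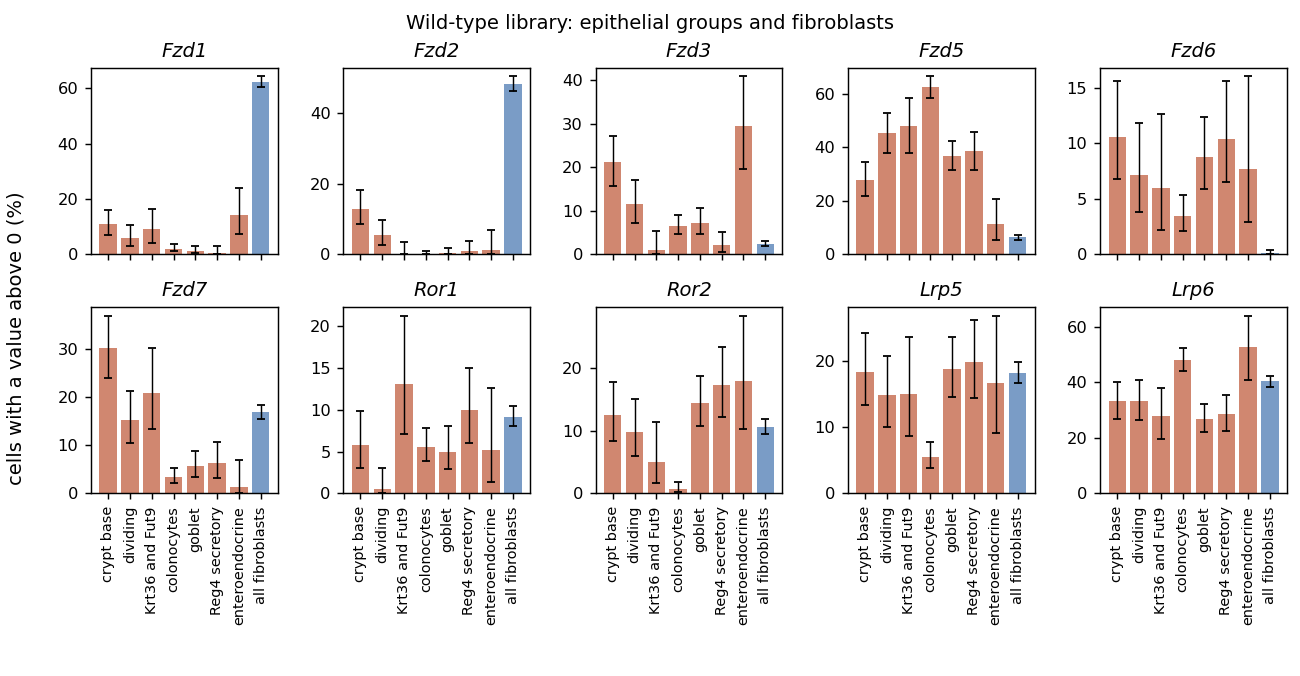
Share of cells above 0 of each receptor in the epithelial groups and in all fibroblasts of the wild-type library, in percent with exact 95% intervals (the vertical axes differ). Fzd5 is highest in colonocytes (62.4%), where Fzd7 (3.48%), Ror2 (0.696%) and Lrp5 (5.57%) are low, and Fzd3 is highest in enteroendocrine cells (29.5%).

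Because beta-catenin signalling needs a Frizzled together with Lrp5 or Lrp6, both were counted in single cells. Only the 6 Frizzleds described here were counted. A cell whose only Frizzled was Fzd4, or another one not described here, thus counts as without a Frizzled. A value above 0 for one of the 6 Frizzleds and for Lrp5 or Lrp6 occurred in 43.3% of fibroblasts (41.4% to 45.3%) and 29.9% of epithelial cells (28.1% to 31.6%). The product of the separate shares of Frizzled and Lrp cells was 41.7% in fibroblasts and 27.6% in epithelium, close to the shares seen together. Within fibroblasts the share was 57.0% in CBFs2 (52.2% to 61.6%), 48.0% in CBFs1 (44.7% to 51.3%) and 33.8% in CTFs (30.2% to 37.6%), with no overlap. Within the epithelium it was 37.4% in colonocytes (33.4% to 41.5%) and 35.1% in crypt base cells (28.6% to 42.0%), which overlapped, and 22.2% in goblet cells (17.8% to 27.1%). It was 10.6% in blood endothelium and 6.17% in pericytes. Such shares depend on depth: after thinning they were 8.54% in fibroblasts and 1.75% in epithelium, 16.4% in CBFs2, 8.48% in CBFs1 and 5.49% in CTFs.

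On average 2.15 of the 10 receptors were above 0 in a fibroblast, 1.42 in an epithelial cell and 0.719 in a blood endothelial cell. Cells with none of the 10 made up 8.87% of fibroblasts (7.77% to 10.1%), 20.9% of epithelial cells (19.4% to 22.5%) and 47.0% of blood endothelial cells (42.6% to 51.5%). A Frizzled together with a Ror occurred in 19.8% of CBFs2 (16.2% to 23.8%), 16.8% of CTFs (14.0% to 19.9%), 12.3% of CBFs1 (10.3% to 14.7%) and 13.5% of crypt base cells (9.14% to 18.9%), and in none of 508 blood endothelial cells. Thinned, the Frizzled and Ror shares were 2.25%, 1.83%, 1.65% and, in crypt base cells, 0 of 208, and cells with none of the 10 made up 44.5% of fibroblasts, 69.2% of epithelial cells and 76.6% of blood endothelial cells.

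Over 16 gated wild-type groups the receptors' profiles could be set beside those of 11714 genes, by Pearson's r of log2(mean + 0.01). These values describe groups of 1 library that share its depth, and they have no test. Fzd1 and Fzd2 were alike (r = 0.85), and Vcan, a matrix proteoglycan, was among the 3 closest genes of both (0.932 and 0.905). Fzd6 was closest to Rapgef5 (0.952) and Aqp1 (0.895), the water channel of capillary endothelium, and was opposite to Fzd1 (-0.61). Fzd5 was closest to Slc25a5 (0.936), a mitochondrial ADP/ATP carrier, and Ror1 to Npas2 (0.924), a clock transcription factor. Ror1 and Ror2 had r = 0.74, whereas Lrp5 and Lrp6 had -0.06.

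Other genes of the pathway, taken as 7 lists of 56 genes in all, give the setting of these receptors. All 10 ligands and R-spondins compared were lower in epithelium than in fibroblasts, among them Wnt4 (-7.33) and Wnt2 (-6.87), whereas both ubiquitin ligases that remove Frizzleds from the surface were higher, Rnf43 (6.57) and Znrf3 (2.61). Of 10 other receptors and co-receptors, 5 were higher in epithelium (36.7% of all genes) and 4 in fibroblasts (20.6%), with Fzd4 at -2.75 and Sdc1 at 2.64. Between CTFs and CBFs, Wnt5a, a ligand of Ror2, was at 3.39 (wild type) and 3.42 (reporter), in the direction of Ror2. Fzd4 was at -2.17 and -2.18, in the direction of Fzd1.

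Over all 7 lists 7 of 45 genes were higher in wild-type CTFs (7.59% of all genes) and 13 in CBFs (10.4%). Among reporter cells 8 of 44 were higher in CTFs (10.3% of all genes) and 12 in CBFs (8.62%). Between crypt base and dividing cells and colonocytes, 11 of 27 were higher in the former (34.5% of all genes) and 2 in the latter (13.3%), and the median of the lists, 0.48, was close to that of all genes, 0.50. Both turnover genes, Rnf43 (2.42) and Znrf3 (2.43), and both targets compared, Sp5 (4.36, from a sum of 2 in colonocytes, exact interval 5.19-fold to 178-fold) and Axin2 (3.89), were higher in crypt base and dividing cells, together with Fzd7 and Lrp5. Crypt base cells were gated partly by Lgr5, which the study names as a canonical Wnt target, so these values are not independent of the gate. The 2 that were lower in crypt base and dividing cells, as Fzd5 was, were the nuclear factor Tcf7l2 (-1.55) and the co-receptor Sdc1 (-1.05), the latter named after its value was seen.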

How the data were processed

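Colon cells of the wild-type and reporter libraries were analysed from the files the authors deposited, made with Cell Ranger, R 3.6.2 and Seurat 3.1 on mm10. The deposited score values are UMI counts corrected by SCTransform, kept as whole numbers, and the deposited natural log values hold ln(1 + value) of those whole numbers. Uncorrected counts and depth were not used here. The 10 genes and all lists were chosen with earlier results of these data known, and the number of markers each gate needs was set after marker values, but not receptor values, were seen.

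A marker counted as present at a value of at least 2 (wild type) or 1 (reporter). Groups of fewer than 20 cells were not described. Means were compared as log2 ratios for genes with a summed value of at least 20 over both groups, a group at 0 was set to 3 counts, and ratios past 2-fold were called. With 1 library per group there was no test. Shares have exact (Clopper-Pearson) 95% intervals, which cover counting error only. Genes named are the 10 receptors, the 3 genes closest to each over the groups (summed value of at least 200), and up to 3 genes of each pathway list with the largest ratio in a comparison. The calculation of log2 ratios was run on simulated Poisson sums with known fold changes. That simulation had no variation between cells or mice, so it checks the arithmetic and not the error of these data.

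Alternatives were stricter (4 and 2) and looser (1) marker minimums, clusters (30 principal components, resolutions 0.45 and 0.3) in place of gates, cells thinned to a total of 2000, pooling over the group total, a pseudocount of 0.01, no minimum sum, a 1.5-fold threshold, the difference of the log values, and leaving out Scrublet calls or cells above 10% mitochondrial counts. Python 3.11.15, numpy 2.4.6, scipy 1.17.1, pandas 2.3.3, scanpy 1.11.5 and matplotlib 3.10.9 were used.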

Additional observations from a re-analysis of the deposited data

Results flagged for a closer look

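Between the crypt bottom fibroblast types 4 receptors had log2 ratios of CBFs2 over CBFs1 of opposite sign in the 2 libraries. The share of all genes with opposite signs was not counted, so this is not read as a result about the receptors. The median of all genes compared was itself 0.06 (wild type) and -0.24 (reporter). Fzd1 was at 0.19 (wild type) and -1.02 (reporter), and Fzd5 at 1.06 and -0.29. Ror1 was at 0.78 and -0.14, and Ror2 at 0.60 and -0.02. With 1 library of each kind the difference was not tested, and the libraries differ in kit, mice and sort, which cannot be told apart. Of the 8 values, those past 2-fold were Fzd5 in the wild-type library, which came to 0.11 in thinned cells, and Fzd1 in the reporter library, which came to -0.95 in thinned cells.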

How the results depend on the processing

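No paired analysis was possible because each group is 1 library and its replicate number is only a name. No share of all genes called stands beside the counts below, so a changed count is not read as a result about the receptors. Counts of receptors called moved by more than 1.5 times as follows, smaller moves being left out. By the difference of log values, no receptor passed in any comparison: 0 for epithelium, fibroblasts, CTFs, CBFs, CBFs1, CBFs2, crypt and colonocytes alike. A gene with a level below 1 in both groups cannot pass there, because a mean of log2(1 + value) never exceeds log2(1 + level). Sparse receptors such as Ror2, Fzd6 and Fzd7 thus could not be called at any fold. This setting is therefore not read as a loss of their calls. Past 1.5-fold, 4 were higher in fibroblasts than in epithelium (2 at 2-fold), 2 and 3 in wild-type and reporter CBFs than in CTFs (1 each), 5 and 1 in wild-type and reporter CBFs2 (1 and 0), and 3 in colonocytes (1). Higher in wild-type CTFs were 0 in place of 1 with looser gates, clusters or thinned cells. In the reporter library 1 in place of 2 was higher in CTFs with a pseudocount. Reporter CBFs had 3 in place of 1 with stricter gates, which left 65 CTFs, and 2 with clusters, thinned cells or pooling. Wild-type CBFs2 had 2 in place of 1 with looser gates (Fzd5 and Ror1), thinned cells (Ror1 and Lrp6, without Fzd5) or no minimum sum, and 0 with a pseudocount. The call added with no minimum sum was Fzd6, at a sum of 0 in CBFs2 and 2 in CBFs1, and comes from setting the group at 0 to 3 counts. Reporter CBFs1 had 1 in place of 2 with clusters, thinned cells, pooling or a pseudocount. Crypt base and dividing cells had 2 in place of 7 in thinned cells, where 4 receptors could be compared, and colonocytes 0 in place of 1 with stricter gates or clusters. The share of fibroblasts with a Frizzled and an Lrp, 43.3%, was 41.3% with stricter gates, 48.3% with looser gates, 8.54% thinned and 47.6% without cells above 10% mitochondrial counts. That of epithelium, 29.9%, was 32.2% with looser gates and 32.2% with clusters, 1.75% thinned and 27.9% without those cells. Apart from the fewer receptors compared in thinned cells and the limit on sparse genes in log values, the causes were not tested. No called ratio changed sign under any alternative run. Looser gates were not run for the reporter library, whose minimum of 1 cannot be lowered. Scrublet called 5 cells (0.0667%) and 4 cells (0.0907%), too few to have worked on corrected counts, so doublets were in effect not removed beyond the 700 and 42 cells that passed gates of 2 kinds. Corrected counts can exceed 0 in a cell that had no molecule, and the sparse genes (Fzd3, Fzd6, Ror1 and Ror2) rest on few cells.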

Other observations

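Reporter fibroblasts in an activated state (468 cells, with at least 2 of Cxcl2, Tnfaip3 and Sbno2) had a Ror1 level of 0.0598 (5.98% of cells, 4.01% to 8.53%), against 0.0363 (3.52%, 2.72% to 4.46%) in CBFs1 of neither state. Fzd5 was at 0.0363 (3.42%, 1.97% to 5.49%) in activated cells and 0.0168 (1.46%, 0.965% to 2.12%) in those CBFs1, and Fzd7 at 0.0321 (2.99%, 1.64% to 4.97%) and 0.0552 (5.09%, 4.13% to 6.19%). The intervals of Ror1, of Fzd5 and of Fzd7 overlapped between these groups. In the 139 cells of an inflammatory state (at least 2 of Saa3, Cxcl5 and Cxcl9) Fzd1 was at 0.698 (48.2%, 39.7% to 56.8%) and Lrp6 at 0.187 (15.8%, 10.2% to 23.0%), near the CBFs1 values of 0.636 and 0.167. Both states cut across the fibroblast types and were not part of a comparison.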
